A study of Homo sapiens with 5 samples.

Results

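The 500 stretches of the genome with the smallest share of contacts with chromosome 19 are described here in HL60, a human cell line established from a promyelocytic leukemia. Contacts were measured by Hi-C, which crosslinks chromatin, ligates DNA ends that are near each other and sequences the ligated pairs. The cells were untreated, or had been given retinoic acid (ATRA), under which HL60 matures toward granulocytes, or the phorbol ester TPA, under which it takes on features of macrophages. The sources used here state neither doses nor times. There were 5 libraries, 2 untreated, 1 ATRA and 2 TPA, and each condition had 1 matrix that counts raw contacts of 500 kb bins on hg19, with the libraries of a condition pooled. All libraries came from 1 cell line with a rearranged genome, so the bins describe HL60 chromosomes and not a normal karyotype.

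A bin was eligible if it lay on an autosome other than chromosome 19 and held at least 0.2 times the median number of contacts in the sum of the 3 matrices. Of 5654 such autosomal bins, 5239 were eligible. For each, the contacts with all bins of chromosome 19 were divided by all its contacts with other chromosomes (its trans contacts), and the 500 bins with the lowest quotient, 9.54% of those eligible, were taken. This quotient is called the chromosome 19 share. It chose the bins, so the shares below are a description and carry no test. With 1 matrix per condition there was no replicate spread to test against, so no p-values appear. All intervals are 95% intervals of counting error, which treat read pairs as independent. They are exact for raw counts, normal for log ratios and slopes, and approximate for balanced contacts, which are rescaled counts.

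Chromosome 19 is the human chromosome richest in genes, and it usually lies in the interior of the nucleus, where it touches other gene-rich chromosomes such as 17 and 22. Chromatin divides into an active and an inactive compartment, called A and B, and regions of the same compartment touch each other more often, within a chromosome and between chromosomes. Gene-poor, inactive chromatin is often held at the nuclear lamina at the rim of the nucleus, away from chromosome 19. Contacts with chromosome 19 are therefore often read as a rough measure of how far a region keeps to the active interior. Genes could not be placed in the bins, because the gene tables used here are on another genome build, and no gene or sequence is named.

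The 3 matrices held 10628045 untreated, 9632300 ATRA and 10423501 TPA contacts on the autosomes and chromosome X. A median chosen bin had 7378 trans contacts over the 3 matrices, of which 106 were with chromosome 19 (quartiles 81 and 134). Its share was 1.43% (quartiles 1.37% and 1.48%), against a median of 1.95% in the 4739 other eligible bins (quartiles 1.74% and 2.25%, highest 6.95%). Summed over bins, 1.41% of the trans contacts of the chosen bins were with chromosome 19 (1.40% to 1.42%), against 2.12% in the other bins. These shares were 1.40% and 2.25% without treatment, 1.33% and 1.88% with ATRA, and 1.50% and 2.24% with TPA. The chosen bins were below the others in each matrix, and each matrix was part of the sum on which they were chosen.

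The lower end of the scale held named regions of several chromosomes. The lowest bin of all lay at 49.5 to 50 Mb on chromosome 18 and had 10 contacts with chromosome 19 among 1296 trans contacts in untreated cells, 12 among 1345 with ATRA and 17 among 1325 with TPA. Its share over the 3 matrices was 0.983% (0.70% to 1.34%). Next came the bin at 223 to 223.5 Mb on chromosome 1, with 25, 31 and 23 contacts with chromosome 19 in untreated, ATRA and TPA and a share of 1.00%. The other 8 of the 10 lowest lay on chromosome 18 (55.5 to 56 and 56.5 to 57 Mb), chromosome 1 (236.5 to 237 Mb), chromosome 6 (161.5 to 162 and 168 to 168.5 Mb), chromosome 14 (68 to 68.5 Mb), chromosome 5 (125.5 to 126 Mb) and chromosome 3 (24 to 24.5 Mb), with shares of 1.01% to 1.15%. The best counted of them, chromosome 6 at 168 to 168.5 Mb, had 49, 63 and 68 contacts with chromosome 19 among 5332, 5597 and 5390 trans contacts.

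The upper end has no edge in the data. The 5 bins just inside the limit, on chromosomes 12, 8, 3, 18 and 15, had shares of 1.5118% to 1.51344%, and the 5 just outside, on chromosomes 6, 10, 11, 12 and 2, had 1.51362% to 1.5142%. The interval lay wholly below the limit in 33 of the 500 chosen bins (6.6%), and it reached the limit in 1699 of the others (35.9%). Single bins near the limit were therefore not resolved at this depth, and sums over many bins were.

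The shares were less low when read in a matrix that played no part in the choice. Bins chosen on ATRA and TPA had a share of 1.59% in untreated cells, against 2.23% in the other bins. Of these 500 bins 104 (20.8%) were also among the 500 lowest of the untreated matrix, which are 9.54% of eligible bins. Bins chosen on untreated and TPA had 1.50% in ATRA against 1.86%, with 121 bins (24.2%) in both lists. Bins chosen on untreated and ATRA had 1.71% in TPA against 2.22%, with 128 (25.6%) in both. The ratio of the chosen to the other bins was 0.715, 0.807 and 0.772 in these readings, against 0.663 in the sum on which the bins were chosen. The group as a whole was thus low in the matrix left out, in all 3 cases, while most of the single bins were not the same: 37 bins were in the lists of all 3 matrices.

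The chosen bins were spread unevenly over the chromosomes. Chromosome 14 held 56, which is 31.8% of its eligible bins, chromosome 6 held 52 (15.4%), chromosome 5 held 54 (15.3%) and chromosome 18 held 22 (14.8%). Chromosomes 11 (32 bins, 12.1%), 10 (31, 11.8%), 16 (18, 11.3%), 7 (30, 9.65%), 3 (36, 9.23%), 4 (32, 8.51%), 8 (24, 8.45%), 2 (36, 7.58%), 1 (30, 6.68%) and 13 (12, 6.22%) lay nearer the average. Few lay on chromosomes 15 (9 bins), 9 (11), 12 (11) and 17 (4), and none on chromosomes 20, 21 and 22, which had 120, 71 and 69 eligible bins. The 22 chosen bins of chromosome 18 all lay between 45 and 68.5 Mb.

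**Figure D1:**
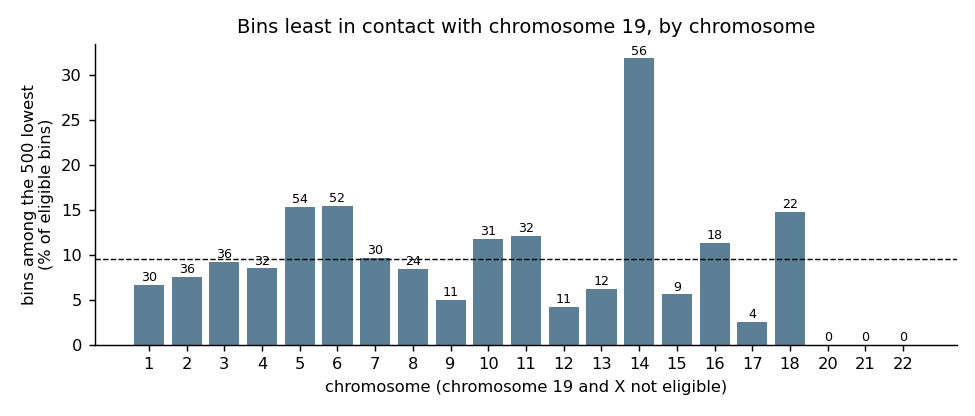
Each bar gives the percentage of a chromosome's eligible 500 kb bins that are among the 500 with the lowest chromosome 19 share, with the number of bins above it; the dashed line is the percentage over all chromosomes, 9.54%. Chromosome 14 stands highest at 31.8%, and chromosomes 20, 21 and 22 have none.

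Within chromosomes the chosen bins lay far out on the long arms. Their median distance from the largest uncovered gap of the chromosome, which in this assembly marks the centromere region, was 68.2 Mb, against 35.0 Mb in the other eligible bins. Among bins less than 20 Mb from the gap 33 of 1404 were chosen (2.35%), and the percentage was 6.54% at 20 to 40 Mb, 7.81% at 40 to 60 Mb, 17.8% at 60 to 80 Mb, 18.3% at 80 to 100 Mb and 25.8% (84 of 325 bins) beyond 100 Mb. Of the chosen bins 306 (61.2%) lay 60 Mb or more from the gap, against 26.4% of the others. The median distance was larger for the chosen than for the other bins on each of the 16 chromosomes with at least 10 chosen bins. Of the 500 bins lowest in contact with chromosomes 17, 20 and 22 in place of 19, 57.2% lay 60 Mb or more from the gap. That list shared 191 bins with the chosen ones. It was drawn without the bins of chromosomes 17, 20 and 22, so the 26.4% above is not its background.

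All 54 chosen bins of chromosome 5 lay from 81.5 Mb on, and all 31 of chromosome 10, 11 of chromosome 12 and 22 of chromosome 18 lay on the longer arm. The same was true of 31 of 32 bins on chromosome 4, 23 of 24 on chromosome 8 and 47 of 52 on chromosome 6. Over the chromosomes with 2 covered arms, 354 of 2959 bins of the longer arm were chosen (12.0%) and 69 of 1611 of the shorter arm (4.28%). Chromosome 1 was an exception, with 22 of its 30 bins on the side of the gap with fewer eligible bins. Within 5 Mb of the first or last covered bin of a chromosome 32 of 411 bins were chosen (7.79%), and these bins together had a share of 2.59%. They were not all at chromosome ends. On chromosomes 13, 14, 15, 21 and 22 the gap starts at 0 Mb, so the first covered bins lie beside the gap.

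**Figure D2:**
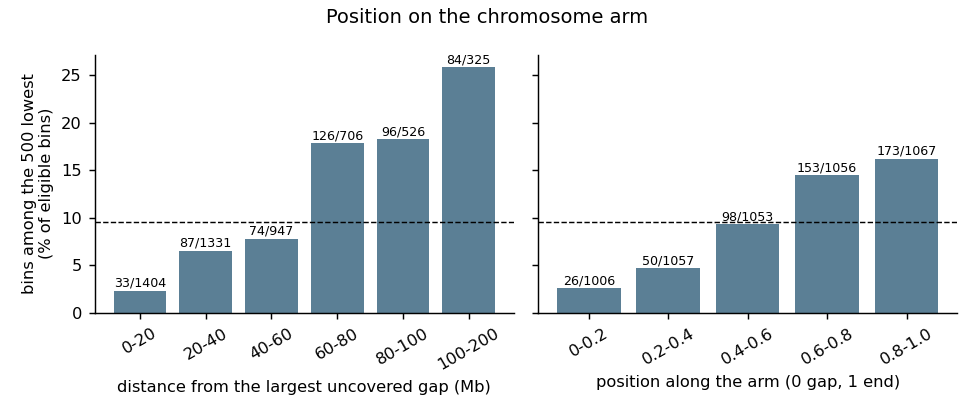
The left panel gives the percentage of eligible bins that are among the 500 lowest by distance from the largest uncovered gap in Mb, and the right panel by position along the arm from the gap (0) to the end (1), with chosen and eligible bins above each bar and the average of 9.54% dashed. The percentage climbs from 2.35% within 20 Mb of the gap to 25.8% beyond 100 Mb.

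The chosen bins were clustered along the chromosomes. They formed 329 runs of adjacent bins, 245 of them single bins, 45 of 2 bins and 39 of 3 or more, and the last held 165 of the 500 bins. Of the chosen bins 255 (51%) had a chosen neighbour, and of the other bins 593 (12.5%) had one.

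The longest run, 11 bins from 165 to 170.5 Mb near the end of chromosome 5, had a share of 1.29% in untreated cells, 1.27% with ATRA and 1.49% with TPA. The second, 10 bins from 78.5 to 83.5 Mb on chromosome 14, had 1.30%, 1.34% and 1.40%. Runs of 7 bins lay on chromosome 6 at 161.5 to 165 Mb (1.27%, 1.16% and 1.49%), chromosome 10 at 116 to 119.5 Mb (1.40%, 1.40% and 1.49%), chromosome 14 at 63.5 to 67 Mb (1.32%, 1.21% and 1.46%) and chromosome 18 at 54.5 to 58 Mb (1.23%, 1.11% and 1.33%). The TPA share was the highest of the 3 in each of these 6 runs, but its interval overlapped both others in all but the chromosome 6 run. There the TPA interval of 1.36% to 1.64% lay above that of ATRA, 1.04% to 1.28%, and overlapped the untreated one. The TPA share was not the highest in the run of 5 bins at 97.5 to 100 Mb on chromosome 14. That run had 1.76% in untreated cells, 1.18% with ATRA and 1.30% with TPA, with intervals of 1.57% to 1.96% and 1.02% to 1.34% for the first 2. The remaining long runs were 6 bins at 187 to 190 Mb on chromosome 4 (1.50%, 1.18% and 1.48%), 5 bins at 47.5 to 50 Mb on chromosome 18 (1.27%, 1.19% and 1.32%) and, of those with 4 bins, 144.5 to 146.5 Mb on chromosome 5 (1.35%, 1.40% and 1.45%).

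Several long runs had 1 partner chromosome with which they made many contacts. Contacts were set against those that the trans coverage of both sides predicts, a ratio called observed over expected. The run on chromosome 5 at 165 to 170.5 Mb had a ratio of 2.44 with chromosome 16, both runs on chromosome 18 had 2.90 and 3.15 with chromosome 4, and the run on chromosome 4 had 3.52 with chromosome 18. The run on chromosome 14 at 63.5 to 67 Mb had 2.02 with chromosome 9. By contrast, the runs on chromosomes 6 and 10 had no partner above 1.33 and 1.15.

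In a rearranged genome, segments joined to another chromosome add contacts to the denominator of the share. Pairs of bins from 2 chromosomes that had at least 20 contacts, at 10 or more times the expectation, 745 in all, were taken as joined. Of the chosen bins 74 (14.8%) were in a joined pair, against 8.06% of the others, and 147 (29.4%) had a partner chromosome at 2 or more times expectation, against 12.6%. Bins in a joined pair did not have low shares in general. Among the other bins, the 382 in a joined pair had a share of 2.47%, against 2.12% in all others. Among the chosen bins it was 1.39% in a joined pair and 1.41% outside. The chosen bins had a share of 1.45% against 2.14% in the others when all contacts within 10 Mb of a joined pair were left out, which is again a description, since the bins were chosen for a low share. Ranking without joined segments kept 480 of the 500 bins, and ranking without the 10 Mb around them kept 417.

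Chromosomes other than 19 were not used in the numerator of the rule, though their contacts make up its denominator. The chosen bins touched the small chromosomes 17, 20, 21 and 22 less than coverage predicts; of these, 17 and 22 are rich in genes and 21 is poor in them. The observed over expected ratio was 0.770 in untreated cells, 0.830 with ATRA and 0.798 with TPA with chromosome 17, and 0.735, 0.802 and 0.742 with chromosome 22. With chromosome 20 it was 0.833, 0.886 and 0.850, and with chromosome 21 0.833, 0.894 and 0.840. All of these were below 1 in each matrix, and for each of the 4 partners the ATRA value was the nearest to 1. The ratio with chromosome 19 itself, which the rule set, was 0.649, 0.729 and 0.690. Only 4 chosen bins lay on chromosome 17 and none on 20, 21 and 22. These ratios were not compared with those of other bins of the same chromosomes.

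Several large chromosomes were touched more than coverage predicts. Chromosome 6 led, with a ratio of 1.16 in untreated cells, 1.11 with ATRA and 1.16 with TPA, followed over the 3 matrices by chromosomes 7 (1.08), 4 (1.07), 11 (1.06), 3 (1.06) and 8 (1.06). In the 426 chosen bins outside joined pairs chromosome 6 stayed at 1.13 and chromosome 7 fell to 1.02. These 426 still held the bins from 126 to 127 Mb on chromosome 8, at 10.6 and 11.3 times the median coverage. The part of these bins in the chromosome 6 ratio was not tested. Chromosomes 1, 9, 10, 12, 14 and 15 lay between 0.959 and 0.993, and chromosome 16 stood at 0.951 (0.919 in the bins outside joined pairs). Chromosome 18, small and gene-poor, stood at 1.02 and chromosome 21 at 0.855.

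**Figure D3:**
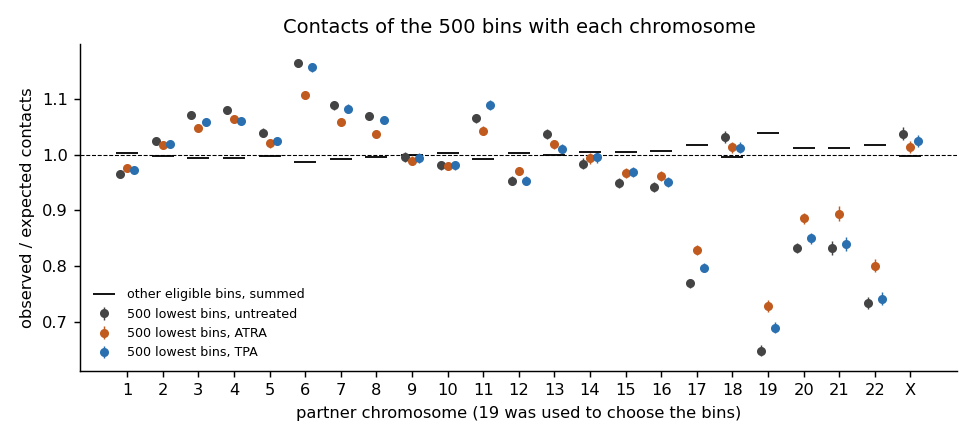
Points give observed over expected contacts of the 500 bins with each partner chromosome in untreated, ATRA and TPA cells, with exact 95% counting intervals, and short bars give the other eligible bins in the summed matrices; chromosome 19 was used to choose the bins. Chromosomes 17, 20, 21 and 22 lie between 0.735 and 0.894, and chromosome 6 lies highest.

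Between chromosomes, the chosen bins touched each other more than coverage predicts. They made 231591 trans contacts among themselves where 201390 were expected, a ratio of 1.15 (1.145 to 1.155), against 0.989 between chosen and other bins and 1.00 among the others. The ratio was 1.16 in untreated cells, 1.11 with ATRA and 1.18 with TPA. These contacts are part of the denominator of the rule. For the 500 bins chosen on the untreated matrix, the ratio read in ATRA and TPA together was 1.09.

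The excess was smaller with other expectations. With an expectation fitted within each chromosome pair the ratio was 1.08, 1.05 and 1.09 in untreated, ATRA and TPA, and without 10 Mb around joined pairs as well it was 1.05, 1.03 and 1.06. It stayed above 1 in each matrix, with intervals that did not reach 1. The 4 bins at 5 or more times the median coverage, all on chromosome 8 between 126 and 129 Mb, held 6.80% of the trans contacts of the chosen bins, and the ratio without them was 1.14.

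The excess was broad over chromosome pairs, here with the expectation fitted within each pair. Of 107 pairs of chromosomes with at least 500 expected contacts between their chosen bins, 94 were above 1, 58 of them with an interval above 1, and 2 had an interval below 1. The median ratio was 1.06. The highest was between chosen bins of chromosomes 4 and 18 (1.34), which hold joined segments, followed by 6 and 17 (1.29) and 1 and 16 (1.23). Those with an interval below 1 were chromosomes 9 and 14 (0.893) and 8 and 11 (0.964).

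The excess did not show as a general pairing of the longer runs, for which the expectation came from coverage and was not fitted within chromosome pairs. Among 76 pairs of runs of at least 4 bins with at least 50 expected contacts outside joined segments, 37 were above 1 and the median was 0.996. The highest were 3 runs of chromosome 6 with the run at 126 to 128 Mb on chromosome 8. The run at 151.5 to 153.5 Mb on chromosome 6 had a ratio of 2.66 in untreated cells, 2.65 with ATRA and 2.71 with TPA with it, the run at 167.5 to 169.5 Mb had 2.70, 2.01 and 2.40, and the run at 161.5 to 165 Mb had 2.50, 1.95 and 2.41. The chromosome 8 run is in the stretch of highest coverage, up to 11.3 times the median. With the expectation fitted within the pair, all chosen bins of chromosomes 6 and 8 together stood at 1.01. Next came the run at 167.5 to 169.5 Mb on chromosome 6 with that at 133 to 135 Mb on chromosome 11 (2.17, 2.07 and 2.40), and the other 6 of the 10 highest had 1.26 to 1.55 over the 3 matrices.

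Within chromosomes, where no contact entered the rule, chosen bins also touched each other more than other bins at the same distance. For pairs at least 1 Mb apart the ratio of raw contacts to the mean at that distance on that chromosome was 1.34 in untreated cells, 1.42 with ATRA and 1.44 with TPA. For the 500 bins chosen on the untreated matrix and read in ATRA and TPA together it was 1.04. Raw contacts scale with the coverage of a bin, and after balancing, which gives all bins equal coverage, the ratio was 1.08, 1.10 and 1.15. Beyond 10 Mb the balanced ratio was 1.11 (1.10 to 1.13), 1.17 (1.15 to 1.19) and 1.18 (1.16 to 1.20). Distant chosen bins of a chromosome thus met more often than the mean at their distance in each matrix, while chosen with other bins stood at 0.996 over the 3 matrices. That mean also took in pairs across the gap, and the chosen bins lay mostly on the longer arm. Pairs within an arm were not compared apart, so the part of the arms in these ratios was not tested.

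The chromosomes differed in this. Over the 3 matrices the balanced ratio was above 1 on 12 of the 16 chromosomes with at least 10 chosen bins, and beyond 10 Mb on 15 of 16. It was highest on chromosome 18 (1.56), 12 (1.37), 1 (1.29) and 14 (1.20), and lowest on chromosomes 16 (0.934), 9 (0.938) and 5 (0.943). On chromosome 18 the raw ratio was 0.722, below 1, and the chosen bins there had a median coverage of 0.589 times that of all eligible bins against 0.989 in the other bins of the chromosome. On chromosomes 8 and 13 the raw ratios of 2.17 and 2.04 became 1.00 and 0.996.

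**Figure D4:**
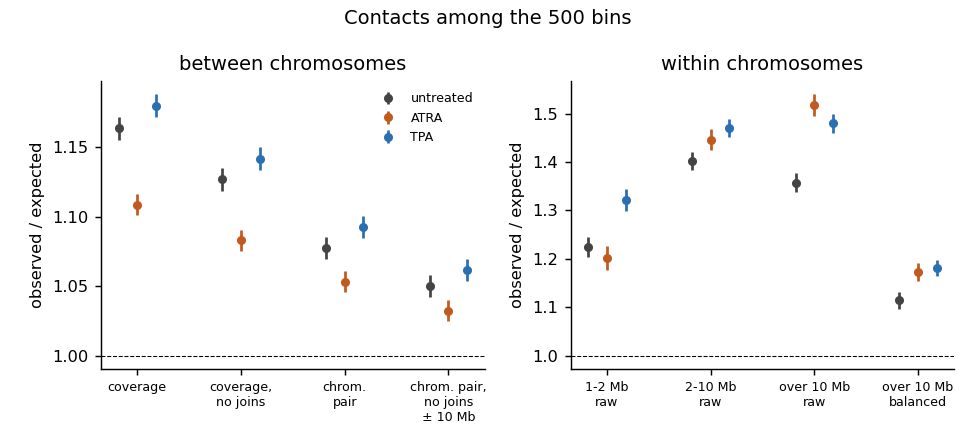
The left panel gives trans contacts among the 500 bins over expectation, from coverage or within chromosome pairs and with or without joined segments. The right panel gives cis contacts among them over the mean at the same distance, raw or balanced. Points are the 3 matrices and bars 95% counting intervals, exact for raw counts and approximate for balanced ones. All points lie above 1, and in the trans panel ATRA is the lowest of the 3 matrices in each setting.

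A larger part of the contacts of the chosen bins went to other chromosomes. In untreated cells 34.5% of their contact ends were within the chromosome (in cis), against 36.4% in the other bins. In ATRA the cis share was 27.9% against 29.6%, and in TPA 33.8% against 34.0%. Against other bins of the same chromosomes the difference was -1.36 percentage points in untreated cells, -1.25 with ATRA and 0.0210 with TPA, so in TPA it was not seen on that footing. Over the 3 matrices the cis share was lower on 14 of the 16 chromosomes, and in TPA on 9 of 16. Chromosomes 13 and 14 went the other way, with 32.5% against 29.8% and 28.4% against 25.9%.

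The local part of the cis contacts was smaller as well. Contacts within a bin made up 3.85%, 2.65% and 3.50% of all contacts of the chosen bins in untreated, ATRA and TPA, against 4.39%, 3.11% and 3.66% in the others. Of the cis contacts between bins, 33.6%, 25.0% and 26.0% spanned under 2 Mb, against 35.9%, 28.3% and 27.6%. Untreated cells had the largest local part in both groups.

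The fitted slope of the decay with distance hardly set the chosen bins apart, though the shape of the decay differed. Between 1 and 10 Mb the slope of log contacts on log distance was -1.16 in untreated cells, -0.94 with ATRA and -0.93 with TPA, against -1.13, -0.97 and -0.92 in the other bins. The difference was -0.0310 (-0.038 to -0.024), 0.0318 (0.024 to 0.039) and -0.00637 (-0.0131 to 0.0003). Its sign was thus not the same in the 3 matrices, and over their sum it was -0.00199 (-0.0061 to 0.0021). Between 10 and 50 Mb the slopes were -0.54, -0.55 and -0.68 against -0.56, -0.57 and -0.64. In both groups the slope from 1 to 10 Mb was steepest in untreated cells.

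The chosen bins had ordinary coverage in the middle and more extremes. Their median was 1.04 times that of all eligible bins (quartiles 0.771 and 1.34), against 0.997 in the others (0.781 and 1.23). Of bins with 1.6 or more times the median coverage 46 of 211 were chosen (21.8%), of bins under 0.6 times 61 of 513 (11.9%), and of those between 0.9 and 1.2 times 127 of 1713 (7.41%). The 4 most covered chosen bins, on chromosome 8, stood at 5.29 to 11.3 times the median. By chromosome, the median of the chosen bins was farthest above that of the other bins on chromosomes 6, 10 and 13. It was 1.50, 1.34 and 1.49 there, against 1.08, 0.995 and 1.06. The chosen bins had a lower median than the others on 4 of the 16 chromosomes: 18, given above, 9 (0.926 against 1.05), 14 (0.796 against 0.910) and 7 (0.971 against 0.975). Copy number in HL60 was not measured apart from coverage, and its part in the choice was not tested.

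A compartment score was computed from the cis contacts, with its sign set so that positive bins touch chromosomes 17, 20 and 22 more, so that negative values stand for B-like chromatin. The sign reference is not independent of a low chromosome 19 share. The score was below 0 in 433 of the 500 chosen bins (86.6%, 83.3% to 89.5%) and in 54.6% of the others. It was below 0 in 67.2% of the chosen bins in untreated cells, 76.4% with ATRA and 88.6% with TPA, against 48.8%, 51.9% and 56.7%. The percentage was higher in the chosen bins on all 16 chromosomes, from 66.7% on chromosome 13 to 100% on chromosomes 14 and 18. On chromosome 18 it was 22.8% in the other bins. The chosen bins there all lay between 45 and 68.5 Mb, at a median coverage of 0.589 against 0.989. Whether the score of chromosome 18 followed that stretch was not tested. Chromosome 14 is uncertain, since its untreated and ATRA scores correlated with the summed score at 0.173 and 0.041 only, and so is chromosome 5, where the score followed the sign reference at 0.167. Without chromosomes 14 and 21 the values over the 3 matrices were 84.9% and 53.5%. The remaining chosen bins had scores above 0, so the 500 bins were not all B-like by this score.

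Treatment moved the share of the chosen bins less than that of the rest in ATRA, and more in TPA. In ATRA the chromosome 19 share of the chosen bins changed by -0.08 on the log2 scale against untreated cells (-0.11 to -0.05) and that of the other bins by -0.26, a difference of 0.18 (0.15 to 0.21). In TPA the chosen bins were higher by 0.09 (0.07 to 0.12) and the others stood at -0.0059, a difference of 0.10 (0.07 to 0.13). Both comparisons use the same untreated matrix. In lists chosen on the matrix that neither side of the ratio uses, the difference was 0.20 in ATRA and 0.07 in TPA. The gap between the chosen bins and the rest was thus narrower in both treated matrices than in the untreated one. Library and treatment cannot be told apart here.

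By chromosome, the ATRA share of the chosen bins was lower than the untreated one on 13 of 16 chromosomes, with 4 intervals below 0. It was lowest on chromosome 12 (-0.38) and chromosome 14 (-0.22), and it was above 0 on chromosome 6 (0.08, 0.0011 to 0.16). In TPA the share was higher on 13 of 16, with 5 intervals above 0. It was highest on chromosomes 4 (0.22), 3 (0.20), 8 (0.20) and 6 (0.16).

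**Figure D5:**
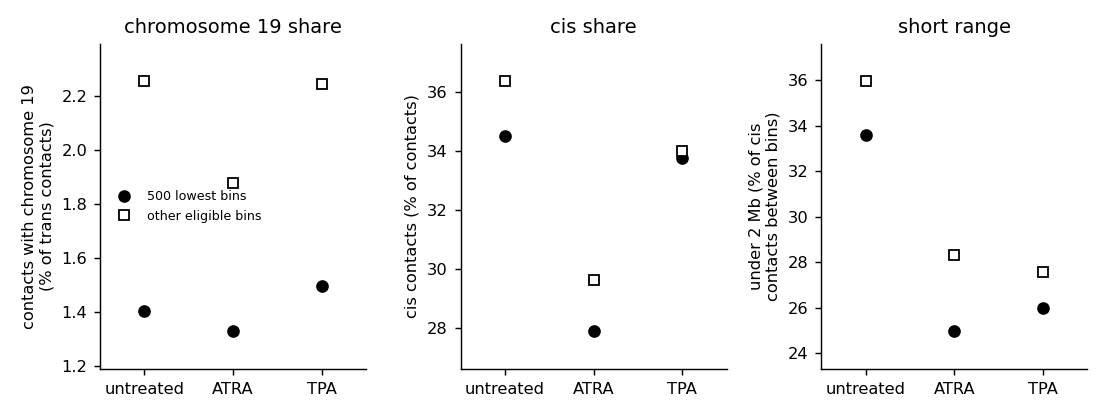
The panels give, for the 500 bins (filled circles) and the other eligible bins (open squares) in each matrix, the chromosome 19 share of trans contacts, the share of contacts in cis and the part of cis contacts under 2 Mb, all in percent on axes that do not start at 0. The 500 bins are lower in all panels, and in TPA the cis shares of 33.8% and 34.0% nearly meet.

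Total coverage of the chosen bins, per matrix total, changed little. The median change in ATRA against untreated was 0.11 on the log2 scale (quartiles 0.04 and 0.16), against 0.08 in the other bins, and 430 of the 500 (86%) were above 0, against 67.7% of the others. In TPA the median was 0.04 (-0.0089 and 0.10), against 0.03, with 355 (71%) above 0 against 59.6%. Over all eligible bins 2.2% were higher by 1.2-fold or more in ATRA and 6.76% were lower; of the chosen bins 17 (3.4%) were higher and 2 (0.4%) lower. In TPA 0.267% of eligible bins were higher and 0.0764% lower by that fold, and 0 of the 500 chosen bins were past it in either direction. The trans contacts alone had changes of 0.24 against 0.21 in ATRA and 0.06 against 0.07 in TPA, so the small TPA difference turned its sign.

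Single bins at the ends of this range were few. The bin at 58.5 to 59 Mb on chromosome 6, next to the centromere gap, was the highest in both treatments, with 966 contacts in untreated cells, 1198 with ATRA and 1123 with TPA, a log2 change of 0.45 (0.33 to 0.57) and 0.25 (0.12 to 0.37). The other high bins in ATRA lay on chromosomes 3 (29 to 29.5 Mb), 5 (121 to 121.5 Mb), 11 (79 to 79.5 Mb) and 10 (117.5 to 118 Mb), at 0.29 to 0.31. The lowest in ATRA was the bin at 228 to 228.5 Mb on chromosome 1, with 5174, 3855 and 4943 contacts in untreated, ATRA and TPA (-0.28), followed by chromosome 14 at 77 to 77.5 Mb (-0.26). In TPA the lowest was chromosome 18 at 46.5 to 47 Mb, with 2186, 1855 and 1922 contacts (-0.16).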

How the data were processed

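Hi-C libraries of HL60 cells were made with HindIII and ligation in solution, per the labels' protocols. The authors deposited 1 matrix of raw contact counts per condition over 6203 bins of 500 kb, per the file headers. The submitters' processing notes name Bowtie, HOMER 4.7 and hg19, and the series' design text names HiCUP for filtering; the sources used here give no settings. Reads of the untreated and TPA libraries were pooled in the matrices. The autosomes and chromosome X (6083 bins) were used, which left out 0.0513% to 0.101% of contacts, and within-bin counts were divided by 2.

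The chosen bins, lists and comparisons were set with earlier results of these data known. Trans expectations came from bin coverage by 100 iterations of proportional fitting, or within chromosome pairs; balancing took 60 iterations. Cis expectations were the mean at the same distance on the same chromosome, over eligible bins. The compartment score was the first eigenvector of the distance-corrected cis correlation of balanced counts, per chromosome. Joined pairs included neighbours within 2 bins when left out.

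Named bins were the 10 lowest, 5 on each side of the limit, the 10 longest runs, the 5 highest and lowest coverage changes per treatment, and the 10 highest pairs of runs; genes were to be named only on the build of the files. Intervals are exact binomial or Poisson at 95%, or normal for log ratios and slopes. Poisson intervals of balanced contacts are approximate. Python 3.11.15, numpy 2.4.6, scipy 1.17.1 and pandas 2.3.3 were used. The choice of bins, the trans ratio from coverage, the raw cis ratio and the slope were tested on simulated data. Balancing, the expectation within chromosome pairs, joined pairs and the compartment score were not.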

Additional observations from a re-analysis of the deposited data

How the results depend on the processing

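Of 65 alternative values, 21 stayed within the counting interval of the reported one (or, for numbers of shared bins, within 1.5 times), 40 lay outside it with the same direction, and 4 reversed; the intervals are narrow, and the causes were not tested. The reversed values were the cis share difference against the same chromosomes in TPA (0.0210 points), the slope difference against the same chromosomes (0.0109) and with balanced counts (0.0260), and the TPA coverage difference over trans contacts (-0.0115). The share of 1.41% was 1.59%, 1.50% and 1.71% in a left-out untreated, ATRA and TPA matrix, 1.34% in the 250 and 1.49% in the 1000 lowest bins, and 1.42% without joined segments. Of the 500 bins, 219, 240 and 264 were in the lists of untreated, ATRA and TPA alone, 191 in that for chromosomes 17, 20 and 22, 333 in that over all contacts with cis included, and 328 in that against chromosomes 2 and 11. The trans ratio of 1.15 was 1.07 per chromosome pair, 1.12 without joined segments, 1.05 with both a pair expectation and 10 Mb around joined pairs left out, 1.09 for bins chosen on untreated and read in ATRA and TPA, 1.145 with a coverage floor of 0.5 and 1.14 without bins at 5 or more times the median coverage. The cis ratio of 1.40 was 1.44 at 2 to 10 Mb, 1.45 beyond 10 Mb, 1.11 balanced, 1.04 for bins chosen on untreated and 1.35 without the bins of high coverage. The cis share difference of -1.32 points was -0.901 against the same chromosomes (-1.25 in ATRA), -1.21 without joined segments, -1.13 at the floor of 0.5 and -1.16 without the bins of high coverage. Median coverage of 1.04 was 1.06 at the floor of 0.5 and 1.05 over trans contacts. The coverage difference in ATRA, 0.0286 on the log2 scale, was 0.0339 over trans contacts and 0.0455 for bins chosen on untreated; in TPA, 0.0170, it was 0.0380 for bins chosen on untreated and 0.00016 for bins chosen on ATRA. The 61.2% of bins 60 Mb or more from the gap were 45%, 49.2% and 55% in the lists of untreated, ATRA and TPA alone and 67% in that against chromosomes 2 and 11. The 86.6% with a score below 0 were 82% and 77.2% in the untreated and ATRA lists. The alternatives around high coverage, 10 Mb around joined pairs, chromosomes 2 and 11, the position, the score and the same chromosomes in each matrix were chosen after seeing the data.

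No paired analysis was possible because the numbered untreated and TPA libraries are pooled in their matrices, and for the same reason leaving out each replicate in turn was not run. Depth limits single bins: a median of 106 contacts with chromosome 19 per chosen bin left 33 of the 500 with an interval wholly below the limit.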

Other observations

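Chromosome X was not eligible. Of its 282 bins past the coverage floor, 44 (15.6%) had a chromosome 19 share below the limit of the 500 bins, against 9.54% of the eligible autosomal bins. The pooled share of chromosome X was 1.84% in untreated cells, 1.77% with ATRA and 2.11% with TPA, with a median coverage of 0.447 times that of the median bin.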
